A study of Mus musculus with 12 samples.

Results

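The 43 mitotic genes described here are genes whose products carry a cell from the end of interphase through chromosome segregation and cytokinesis. They were taken by gene symbol from a list of mitotic genes, all 43 were found in both deposited count tables, and each table holds 24444 gene symbols. The genes were measured by bulk RNA sequencing of bone marrow cells from C57BL/6 mice, in 12 libraries that form 4 groups of 3. Group aged_WT was Hopx wild type and group aged_KO was Hopx knockout, both labelled old with an age of 18 weeks and without MN1 overexpression. Group MN1_WT was Hopx wild type and group MN1_KO was Hopx knockout, both with MN1 overexpression and an age of 16 weeks. Hopx encodes a small homeodomain protein that lacks DNA binding, and MN1 is a transcriptional coregulator that drives myeloid leukaemia when overexpressed in marrow. How the knockout was made, how MN1 was introduced, which marrow cells carried it and whether the marrow came from transplanted hosts are not given in the sources used here. The labels do not say that the libraries of a group came from separate animals, so p-values measure the spread between libraries, which may be technical.

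Entry into mitosis is driven by cyclin-dependent kinase 1 bound to B-type cyclins, and Polo-like and Aurora kinases organise the spindle and the division plane. Kinetochores tie chromosomes to spindle microtubules, and the spindle checkpoint holds back the anaphase-promoting complex until every chromosome is attached. Most of these genes are transcribed late in the cell cycle, and in bone marrow their messages come mainly from dividing progenitors, since mature neutrophils no longer divide. In whole marrow, fewer dividing cells and less of each message per dividing cell cannot be told apart.

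Many late cell-cycle promoters carry a CHR element (TTTGAA or TTCGAA) and CCAAT boxes, which are the textbook sites of the DREAM and MuvB complexes with B-MYB and FOXM1, and of NF-Y. RefSeq promoter windows of 300 bases, from 250 before to 50 after a gene's start, were matched by symbol for 34 of the 43 genes. The 4 windows below belong to the genes with the smallest p in the comparison of aged_KO with aged_WT among those that hold both elements. They are shown as examples of called genes whose windows hold both elements. Cenpe, which had a smaller p than Mki67 and Cenpf, is not shown because its window holds no CHR. Each is read 5′ to 3′ along the strand of the gene in GRCm38.p6, the NCBI name of build mm10, and capitals mark CHR and CCAAT matches on either strand. Plk1 encodes Polo-like kinase 1 (window at chr7:122159185-122159484, plus strand), Ect2 the exchange factor that starts the contractile ring at the division plane (window at chr3:27153805-27154104, minus strand), Mki67 the Ki-67 protein that coats mitotic chromosomes (window at chr7:135716330-135716629, minus strand), and Cenpf a large outer kinetochore protein (window at chr1:189688037-189688336, minus strand).
Plk1: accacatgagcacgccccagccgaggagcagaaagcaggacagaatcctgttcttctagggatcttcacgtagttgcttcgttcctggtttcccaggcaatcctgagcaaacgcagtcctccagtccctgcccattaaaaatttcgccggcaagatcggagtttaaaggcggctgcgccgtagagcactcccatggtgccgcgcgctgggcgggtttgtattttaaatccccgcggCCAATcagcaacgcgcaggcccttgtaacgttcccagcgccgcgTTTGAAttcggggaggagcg
Ect2: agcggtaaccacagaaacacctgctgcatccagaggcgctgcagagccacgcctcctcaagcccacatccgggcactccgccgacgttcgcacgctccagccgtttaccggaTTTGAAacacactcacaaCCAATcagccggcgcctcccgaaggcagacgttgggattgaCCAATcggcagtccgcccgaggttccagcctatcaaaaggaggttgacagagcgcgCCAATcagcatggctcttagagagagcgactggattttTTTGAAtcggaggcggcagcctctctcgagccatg
Mki67: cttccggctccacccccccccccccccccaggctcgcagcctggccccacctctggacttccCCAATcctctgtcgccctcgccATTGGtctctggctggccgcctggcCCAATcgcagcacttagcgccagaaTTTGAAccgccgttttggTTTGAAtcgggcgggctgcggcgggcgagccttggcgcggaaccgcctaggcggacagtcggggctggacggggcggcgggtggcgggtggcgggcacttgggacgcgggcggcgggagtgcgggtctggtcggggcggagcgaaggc
Cenpf: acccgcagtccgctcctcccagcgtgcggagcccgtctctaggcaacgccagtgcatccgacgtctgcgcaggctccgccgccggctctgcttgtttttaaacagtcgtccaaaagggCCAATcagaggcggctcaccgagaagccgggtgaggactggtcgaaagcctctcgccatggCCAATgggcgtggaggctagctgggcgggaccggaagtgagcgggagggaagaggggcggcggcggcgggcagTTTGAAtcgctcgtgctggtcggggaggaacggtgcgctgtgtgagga

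In Plk1 the CHR match began at base 31 after the start and the CCAAT match at base -14. Ect2 held 2 CHR and 3 CCAAT matches, Mki67 held 2 and 3, and Cenpf held 1 and 2. Of the 34 matched genes, 27 (79.4%) held a CHR of either form on either strand, against 21.7% of the 27025 genes with a window of the same length. CCAAT, on either strand, was found in 25 (73.5%) against 41.1% of all genes, and both elements in 23 (67.6%) against 9.65%. Pttg1, Mad2l1, Birc5, Nuf2 and Nusap1 held neither. A match describes letters in this window and is not evidence of binding.

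All 43 genes were detected in all 12 libraries and passed the filter on low counts in every comparison. Library totals ran from 16544407 to 28409046 counts. Hopx stood at 14.1 to 33.6 CPM (counts scaled to the library total) in the 6 wild-type libraries, at 0 to 0.121 CPM in aged_KO and at 2.92 to 3.51 CPM in MN1_KO. Mn1 was at 22.1, 46.3 and 47.3 CPM in MN1_KO and at 36.4 CPM in MN1_WT replicate 3. It was at 0.395 and 0.16 CPM in MN1_WT replicates 2 and 4, which goes against their label and is below the 0.456 to 1.18 CPM of aged_WT, so the comparisons that use these 2 libraries are also described without them. Marrow markers were present in every group: summed mature neutrophil markers ran from 20024 to 101849 CPM and summed erythroid markers from 317 to 6667 CPM. Among the marker lists used below, 1 gene, the globin gene Hbb-bs, was at 0 throughout a group, in aged_KO and in MN1_KO.

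Compared per transcript length on the authors' TPM scale, Ube2c, the ubiquitin-conjugating enzyme of the anaphase-promoting complex, was the most abundant of the 43 genes, at 202 ± 40.9 TPM (SD over the 12 libraries) and ranked first or second in every library. Top2a, the topoisomerase that untangles sister chromatids, stood at 176 ± 50.7 TPM, the survivin gene Birc5 at 161 ± 41 and Mki67 at 151 ± 44.2. These neighbours in the order lie closer to each other than their spread over libraries. Ccna2 (cyclin A2) followed at 114 ± 29.2 TPM and Ccnb2 (cyclin B2) at 109 ± 14.9 TPM. The lowest level was that of Cdc25c, a CDK1-activating phosphatase, at 11.7 ± 2.92 TPM.

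Summed over the 43 genes, the messages took 0.53 to 0.565% of the counts in the aged_WT libraries and 0.558 to 0.632% in aged_KO. They took 0.438 to 0.7% in MN1_WT and 0.364 to 0.427% in MN1_KO. The sum in CPM was 6658 and 7001 in MN1_WT replicates 2 and 4 but 4379.7 in MN1_WT replicate 3, close to the 4266, 3636 and 3965 of MN1_KO replicates 5, 7 and 8. The aged libraries lay between, at 5302 to 5653 CPM for wild type and 5581 to 6322 for knockout. Within a group, the median coefficient of variation of the 43 genes was 7.07% in aged_WT, 8.72% in aged_KO, 23.5% in MN1_WT and 21.1% in MN1_KO.

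**Figure D1:**
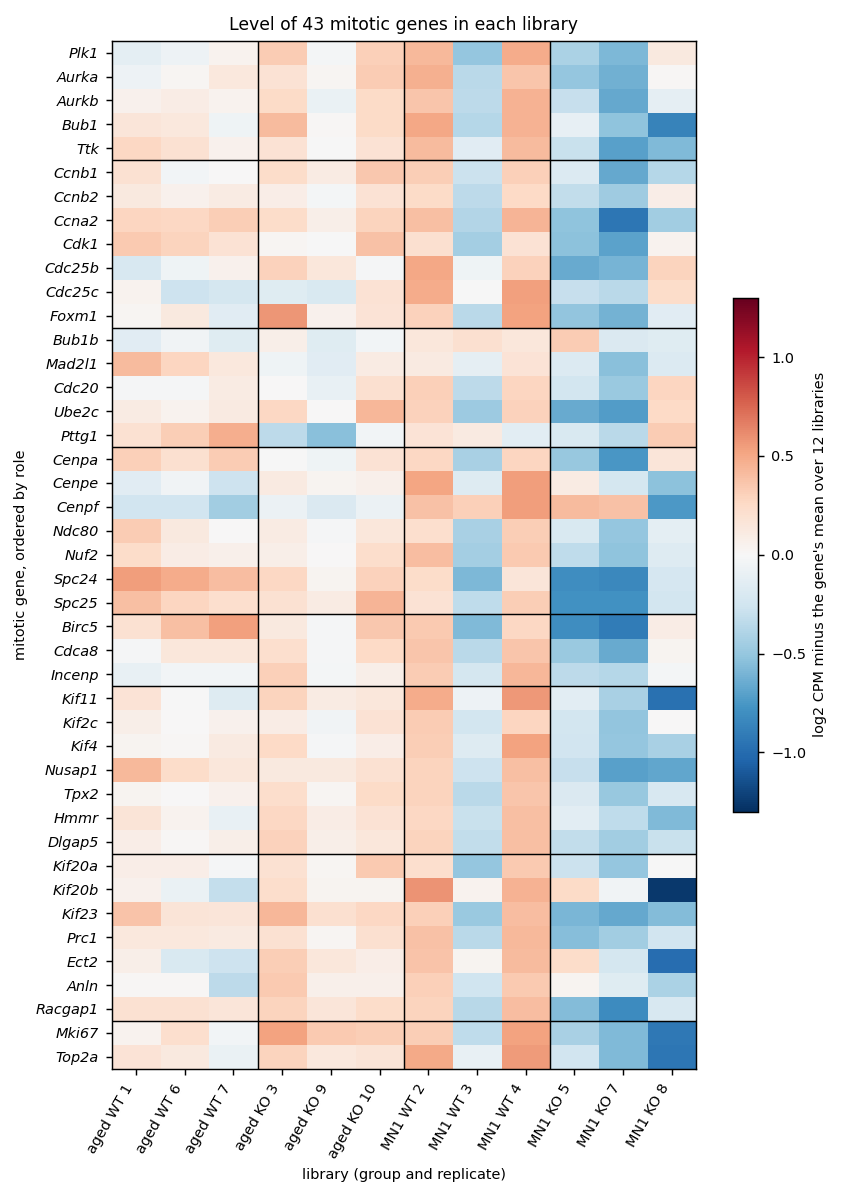
Level of each of the 43 mitotic genes (vertical, ordered by role) in each of the 12 libraries (horizontal), coloured by log2 CPM minus the gene's mean over the 12 libraries. MN1_WT replicates 2 and 4 are the reddest columns, while MN1_WT replicate 3 lies with the blue columns of MN1_KO.

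MN1_WT replicates 2 and 4 were the highest 2 of the 12 libraries for 21 of the 43 genes, a pattern held by 3.39% of the 12463 genes with a mean of at least 1 CPM. MN1_WT replicate 3 together with the 3 MN1_KO libraries made up the lowest 4 for 19 of the 43, against 5.69% of those genes. Replicate 3 lay below replicates 2 and 4 in 41 of the 43, against 31.3%. The exceptions were Bub1b, the checkpoint kinase-like protein BubR1, and Pttg1, which encodes securin, the inhibitor of separase. The summed stem and progenitor markers were 3869.6 CPM in MN1_WT replicate 3, 986 to 3810.5 CPM in MN1_KO, and at most 495 CPM in the other 8 libraries, and their part in the mitotic levels was not tested.

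The regulators differ in how far they follow that order. Plk1 stood at 75.1, 78.4 and 84.9 CPM in aged_WT, at 103, 80.8 and 102 in aged_KO, at 109.9, 57.9 and 115 in MN1_WT, and at 61.8, 54.7 and 89.5 in MN1_KO. Aurka, the spindle pole Aurora kinase, stood at 56, 59.6 and 64.4 CPM in aged_WT, 66.9, 59.7 and 73.8 in aged_KO, 80.8, 46.1 and 75.5 in MN1_WT and 41.4, 38 and 59.1 in MN1_KO. Plk1 in MN1_KO replicate 8 lay above every aged_WT library. For both kinases MN1_WT spans the ranges of all other groups but for the lowest MN1_KO libraries. Aurkb, the catalytic kinase of the chromosomal passenger complex, was at 78.9, 81.3 and 78.3 CPM in aged_WT, 90.3, 71.4 and 90.1 in aged_KO, 97.4, 59.9 and 104 in MN1_WT and 61.8, 47.7 and 70.1 in MN1_KO.

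Ccnb1 (cyclin B1) was at 127, 108 and 111 CPM in aged_WT, 131, 119 and 141 in aged_KO, 138, 91.1 and 137 in MN1_WT and 97.9, 69.7 and 85.7 in MN1_KO. Its partner kinase Cdk1 was at 167, 160.4 and 149.9 CPM in aged_WT, 134, 131 and 171 in aged_KO, 152, 97.1 and 150.1 in MN1_WT and 90.7, 81.4 and 136 in MN1_KO. In the aged groups Ccnb1 had its 2 highest values in the knockout, while Cdk1 had its highest and its 2 lowest values there. Cdk1 did not follow the order of the sums: its 3 highest libraries were aged ones, and MN1_KO replicate 8 was above aged_KO replicates 3 and 9. Foxm1, a transcription factor of late cell-cycle genes, was at 79.8, 85.9 and 70.8 CPM in aged_WT, 117, 81.8 and 89.2 in aged_KO, 96.9, 61.9 and 113 in MN1_WT and 55, 51.3 and 70.9 in MN1_KO.

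Mki67 was at 985, 1108 and 933 CPM in aged_WT, 1368, 1204 and 1193 in aged_KO, 1192, 760.0 and 1367 in MN1_WT and 712, 642 and 501 in MN1_KO. Top2a was at 645, 623 and 539 CPM in aged_WT, 696, 630.0 and 642 in aged_KO, 805, 535 and 838 in MN1_WT and 482, 383 and 298 in MN1_KO. For both of these chromosome proteins every MN1_KO library was below every other library of the series.

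**Figure D2:**
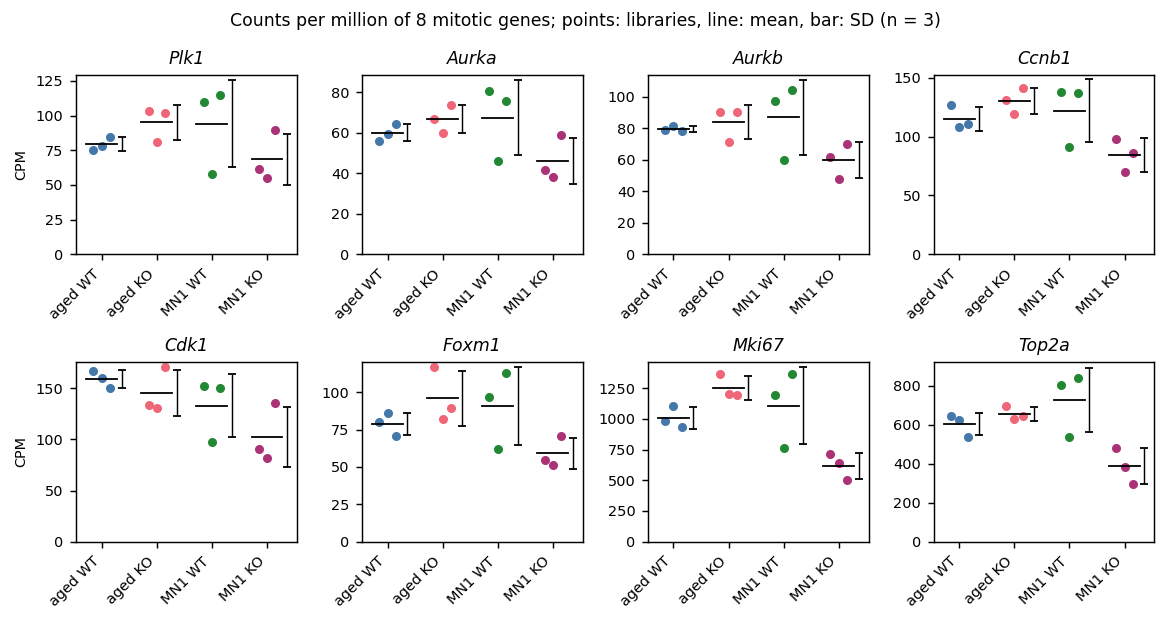
CPM of Plk1, Mki67, Top2a, Ccnb1, Cdk1, Aurka, Aurkb and Foxm1 in each library (points) by group (horizontal), on axes that start at 0, with the group mean and SD over 3 libraries. The 3 points of MN1_WT split into a high pair and a low library in each of the 8 genes.

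The first comparison asks what loss of Hopx did to these genes without MN1. In the aged marrow 18 of the 43 mitotic genes rose in the knockout and 1 fell (edgeR quasi-likelihood test, Benjamini-Hochberg adjusted p threshold 0.05), while 24 did not pass. Of all 12771 genes tested, 15.6% rose and 15.8% fell. The changes were small: the 43 genes ran from -0.45 to 0.49 on the log2 scale with a median of 0.25, beside -0.02 for all genes tested, and 38 of 43 were above 0, beside 47.6% of all genes. These values are relative to the typical gene, because the fit scaled libraries by TMM (trimmed mean of M-values). Scaled by library totals alone, which moves the median of all genes to -0.20, the median of the 43 was 0.08, none rose and 1 fell, beside 1046 and 3381 of all genes (34.7% called).

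Among the mitotic kinases 3 of 5 rose. On the TMM scale used by the test, Plk1 was at 71.6, 74 and 77.9 CPM in aged_WT and at 104, 91.3 and 108 in aged_KO, groups that do not overlap. It rose by 0.43 ± 0.10 on the log2 scale (SE, n = 3 and 3, edgeR adjusted p = 0.0107). Aurka rose by 0.33 and Bub1, the kinase that marks kinetochores for the checkpoint, by 0.32. Aurkb was at 0.25 (edgeR adjusted p = 0.0774) and the checkpoint kinase Ttk at 0.12 (0.417), and neither passed.

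Among the cyclins, CDK1 and its activators, 3 of 7 rose. Ccnb1 was at 0.35 ± 0.11 on the log2 scale (edgeR adjusted p = 0.0372), the phosphatase Cdc25b at 0.40 ± 0.11 (0.0207) and Foxm1 at 0.45 ± 0.13 (0.0243). Cdk1 itself was at 0.04 ± 0.13 (0.819). Ccnb2, Ccna2 and Cdc25c were at 0.17, 0.09 and 0.27 and did not pass.

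In the checkpoint and anaphase-promoting complex group 1 of 5 rose and 1 fell. Ube2c rose by 0.33 ± 0.11 (edgeR adjusted p = 0.0485). Pttg1 was at 16, 17.2 and 18.7 TMM-scaled CPM in aged_WT and at 11.7, 11.4 and 15.2 in aged_KO, lower in every knockout library, with a log2 fold change of -0.45 ± 0.15 (edgeR adjusted p = 0.0442). It was the only one of the 43 that fell, and 1 of its 12 expected counts was not whole, a sign of reads shared with another listed gene. Bub1b, the checkpoint protein gene Mad2l1, and Cdc20, the activator of the anaphase-promoting complex, were at 0.25, -0.13 and 0.20 and did not pass.

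At the kinetochore 2 of 7 genes rose, and they were the 2 with the longest transcripts. Cenpe, a kinesin that carries chromosomes to the metaphase plate, was at 95.9, 103 and 85.3 TMM-scaled CPM in aged_WT and at 123, 129.7 and 123 in aged_KO (log2 fold change 0.40 ± 0.10, edgeR adjusted p = 0.016). Cenpf was at 81.9, 81.3 and 68.5 in aged_WT and at 98, 102 and 103 in aged_KO (0.38 ± 0.10, edgeR adjusted p = 0.0192). For both genes all knockout libraries lay above all wild-type libraries, although the expected counts of Cenpf were not whole in any of the 12 libraries. The 4 subunits of the NDC80 complex, Ndc80, Nuf2, Spc24 and Spc25, were at 0.10, 0.14, -0.09 and 0.13, and the centromeric histone gene Cenpa at -0.06, and none of these 5 passed.

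Of the 3 passenger scaffold genes 1 rose: Incenp by 0.35 ± 0.10 (edgeR adjusted p = 0.0211), beside 0.24 for Cdca8 (borealin) and -0.04 for Birc5, which did not pass. Among the spindle motors and microtubule binders 3 of 7 rose, by 0.30 to 0.32: Tpx2, which activates Aurora A on the spindle, Hmmr and Dlgap5. The bipolar spindle kinesin Kif11, at 0.35 ± 0.12 (edgeR adjusted p = 0.054), did not pass, nor did Kif2c, Kif4 and Nusap1, at 0.21, 0.23 and 0.06.

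Of the cytokinesis genes 4 of 7 rose, beside 3 of 5 kinases. Ect2 was at 59.9, 49 and 45.3 TMM-scaled CPM in aged_WT and at 75, 74.4 and 67.2 in aged_KO (log2 fold change 0.49 ± 0.12, edgeR adjusted p = 0.0151), without overlap. The contractile ring scaffold Anln rose by 0.43, and the central spindle kinesins Kif20b and Kif20a by 0.38 and 0.32. Kif23, Prc1 and Racgap1, the other central spindle components, were at 0.24, 0.20 and 0.23 and did not pass. Of the chromosome proteins, Mki67 was at 938, 1045 and 856 TMM-scaled CPM in aged_WT and at 1379, 1359.9 and 1262 in aged_KO (0.49 ± 0.13, edgeR adjusted p = 0.018), while Top2a, at 0.30 ± 0.12 (0.0926), did not pass.

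On the TMM scale the 3 knockout and 3 wild-type libraries did not overlap for 31 genes that were higher and 1 that was lower in the knockout, beside 23.4% and 25.0% of all genes tested. On plain CPM they did not overlap for 6 higher genes (Cenpe, Cenpf, Incenp, Ect2, Anln and Mki67) and 4 lower ones (Mad2l1, Pttg1, Cenpa and Spc24), beside 12.4% and 38.4%. With all 12 libraries in 1 fit no member passed (5.87% of all genes did), and leaving out 1 library left 2 to 14 calls, beside 18.6 to 35.2% of all genes. There were 2 calls without aged_WT replicate 7 (18.6% of all genes), 4 without aged_WT replicate 6 (19.9%) or aged_KO replicate 3 (21.3%), 10 without aged_WT replicate 1 (26%) and 12 without aged_KO replicate 9 (22.6%). These shares count rises and falls together, while every member called in these settings rose. In the same order, genes that rose were 1107 of the 2402 called, 1211 of 2560, 1379 of 2780, 1619 of 3384 and 1398 of 2947.

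Cell type markers moved with this comparison. Granulocyte progenitor markers such as Elane and Mpo rose for 6 of 8 genes, and their sum was 5150.1 to 6442 CPM in aged_WT and 6340.1 to 12831 in aged_KO. Mature neutrophil markers rose for 5 of 9, with sums of 65002 to 85336 and 79858 to 101849 CPM. Stem and progenitor markers rose for 1 of 8 and fell for 3, with overlapping sums of 300.4 to 330.4 and 259 to 326 CPM. Erythroid markers fell for 7 of 10 genes tested, from 1423 to 6667 CPM in wild type to 673 to 982 in knockout. Early B cell markers fell for all 11, from 371 to 714 CPM to 20 to 28.1 CPM, and T cell markers for all 6, from 69 to 119 CPM to 16.8 to 25.4 CPM. The part of these shifts in the mitotic changes was not tested.

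The other lists of cell division genes are read against the 15.6% of all genes that rose and the 15.8% that fell. Among 32 further spindle and cytokinesis genes 12 rose and none fell, with a median of 0.25; Iqgap3 and Depdc1b were at 0.78 and 0.67. Among 19 condensin and cohesin genes 4 rose and none fell (median 0.18), with Espl1, which encodes separase, at 0.37 and the condensin subunit Ncapd3 at 0.34. Of 27 other kinetochore and checkpoint genes 2 rose and 2 fell (median 0.05), Kntc1 at 0.61 and Cenpk at -0.53 being the clearest of each direction. Of 17 subunits and regulators of the anaphase-promoting complex 1 rose and 1 fell (median -0.02), Anapc1 at 0.37 and Anapc16 at -0.40. Of 12 genes of mitotic entry and the DREAM and MuvB complexes 2 rose, the phosphatase Cdc25a at 0.72 (edgeR adjusted p = 9.67e-04) and the CHR-binding subunit Lin54 at 0.64.

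Genes of DNA replication and the G1/S transition had a median of -0.14 over 28 genes, of which 1 rose (E2f2, 0.59) and 1 fell (Ccne1, cyclin E1, -0.54). Their summed level was 3625 to 4560.3 CPM in aged_WT and 3220.0 to 3685 CPM in aged_KO, ranges that overlap. The mitotic sum leaned the other way, at 5302 to 5653 and 5581 to 6322 CPM, and also overlapped. Both are plain CPM sums without TMM scaling. Whether the replication and mitotic lists differ from each other was not tested.

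The second comparison asks the same of Hopx under MN1 overexpression. The estimates of all 43 genes were below 0, from -0.98 to -0.10 on the log2 scale, whereas 53.2% of all genes were above 0. The median was -0.56 beside 0.03 for all genes, but no gene passed the test. edgeR called 0 of the 43 (adjusted p 0.322 to 0.941) and 0% of all 13525 genes tested. At an unadjusted p under 0.05 it called 9 of the 43, all lower, beside 5.80% of all genes, while DESeq2 called 1 member (4.21% of all genes) and limma-trend 0 at their adjusted thresholds. The 2 groups did not overlap on the TMM scale for 5 genes, all lower in the knockout, beside 7.36% of all genes. On plain CPM they did not overlap for 9, all lower, beside 8.32%.

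The 5 without overlap on the TMM scale were also the genes with the smallest p, and none of them passed. Top2a was at -0.98 ± 0.29 (SE, n = 3 and 3, edgeR adjusted p = 0.322) and Mki67 at -0.91 ± 0.31 (0.393), from the levels given above. Kif11 was at 288, 196 and 303 CPM in MN1_WT and at 187, 153 and 105 in MN1_KO (-0.90 ± 0.29, edgeR adjusted p = 0.369). Ttk was at 39.3, 26.7 and 39.4 CPM against 24.1, 18.1 and 19.8 (-0.82 ± 0.27, edgeR adjusted p = 0.379). Nusap1, which bundles spindle microtubules, was at 144, 98.2 and 155 CPM against 95.8, 72.4 and 74 (-0.78 ± 0.27, edgeR adjusted p = 0.401). In each of the 5 the lowest wild-type library was replicate 3.

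The direction rested on 2 libraries. Without MN1_WT replicates 2 and 4, the libraries with low Mn1, the median of the 43 was 0.11, 30 of 43 were above 0, and edgeR called none. In that fit Plk1 was at 0.43, against -0.49 ± 0.41 with them, Cdk1 at 0.27 against -0.40, and Aurka, Aurkb, Foxm1 and Ccnb1 at 0.19, 0.17, 0.11 and 0.05 against -0.58, -0.59, -0.66 and -0.58. Top2a, Mki67, Kif11, Ttk and Nusap1 were at -0.33, -0.16, -0.27, -0.22 and -0.14. MN1_WT was then represented by 1 library, assumed to vary like the knockout group. Without MN1_WT replicate 3 instead, 9 members were called lower, beside calls for 6.49% of all genes, of which 441 of 896 were lower.

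Marker sums differed here as well, though no marker passed in edgeR. Early B cell marker sums were 60.4 to 383 CPM in MN1_WT and 20.6 to 47.8 in MN1_KO, and T cell marker sums 108 to 219 and 50.9 to 59.8. Granulocyte progenitor sums were 2397 to 8772 CPM in MN1_WT and 3249.6 to 5213 in MN1_KO, and erythroid sums 495 to 1106 and 317 to 1666, both overlapping. The part of these in the mitotic levels was not tested. As for all genes in this comparison, no gene of the wider cell division lists passed in edgeR.

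The knockout effects of the 2 experiments were then compared as a difference in 1 fit of the 12 libraries. The estimate of the difference, MN1 minus aged, was below 0 for 42 of the 43 genes, whereas 54.7% of all genes were above 0, with a median difference of -0.84 beside 0.08 for all genes, and 2 passed, beside 1.92% of all 13937 genes called lower. They were the chromosome proteins Mki67, at -1.41 ± 0.34 (edgeR adjusted p = 0.0482), and Top2a, at -1.28 ± 0.31 (0.0499). Just short of the threshold were Kif11, at -1.25 ± 0.31 (edgeR adjusted p = 0.0548), the chromokinesin Kif4, at -0.93 ± 0.27 (0.0819), and Ttk, at -0.95 ± 0.28 (0.0847). Kif4 was at 60.9, 60.1 and 64.7 CPM in aged_WT, 71, 58.8 and 63.2 in aged_KO, 74.3, 53.1 and 85.6 in MN1_WT and 50.1, 42.1 and 44.5 in MN1_KO. Ttk was at 35.7, 33.9 and 30.8 CPM in aged_WT and 33.7, 29.5 and 33.6 in aged_KO. Kif11 was at 233, 205 and 183 CPM in aged_WT and 251, 222 and 227 in aged_KO. For Kif11, Kif4 and Ttk the aged groups overlapped on CPM.

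Pttg1 was the exception, at 0.34 ± 0.34 (edgeR adjusted p = 0.582). The 2 calls, beside 3.32% of all genes, did not hold under other choices. Leaving out any of 10 single libraries left 0 calls, but calls over all genes also fell, to 0.372 to 2.1%. Without MN1_KO replicate 8 there was 1 (6.05% of all genes), and without MN1_WT replicate 3 there were 30 (23.6% of all genes). Without MN1_WT replicates 2 and 4, which leaves 1 library in that group, the median was -0.26. Scaling by library totals gave 0 calls (4.05% of all genes) and DESeq2 gave 14 (12.7%). The 30 and the 14 were all lower. Genes that were lower were 1414 of the 3337 called without MN1_WT replicate 3 and 975 of the 1685 called in DESeq2. Among the other lists 4 of the spindle and cytokinesis genes were called lower, Depdc1b and Cit being the clearest, and 2 of the mitotic entry genes, Lin54 and Cdc25a. Without MN1_WT replicates 2 and 4, Depdc1b was at -0.92, Cit at -1.01, Lin54 at -0.96 and Cdc25a at -0.56.

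**Figure D3:**
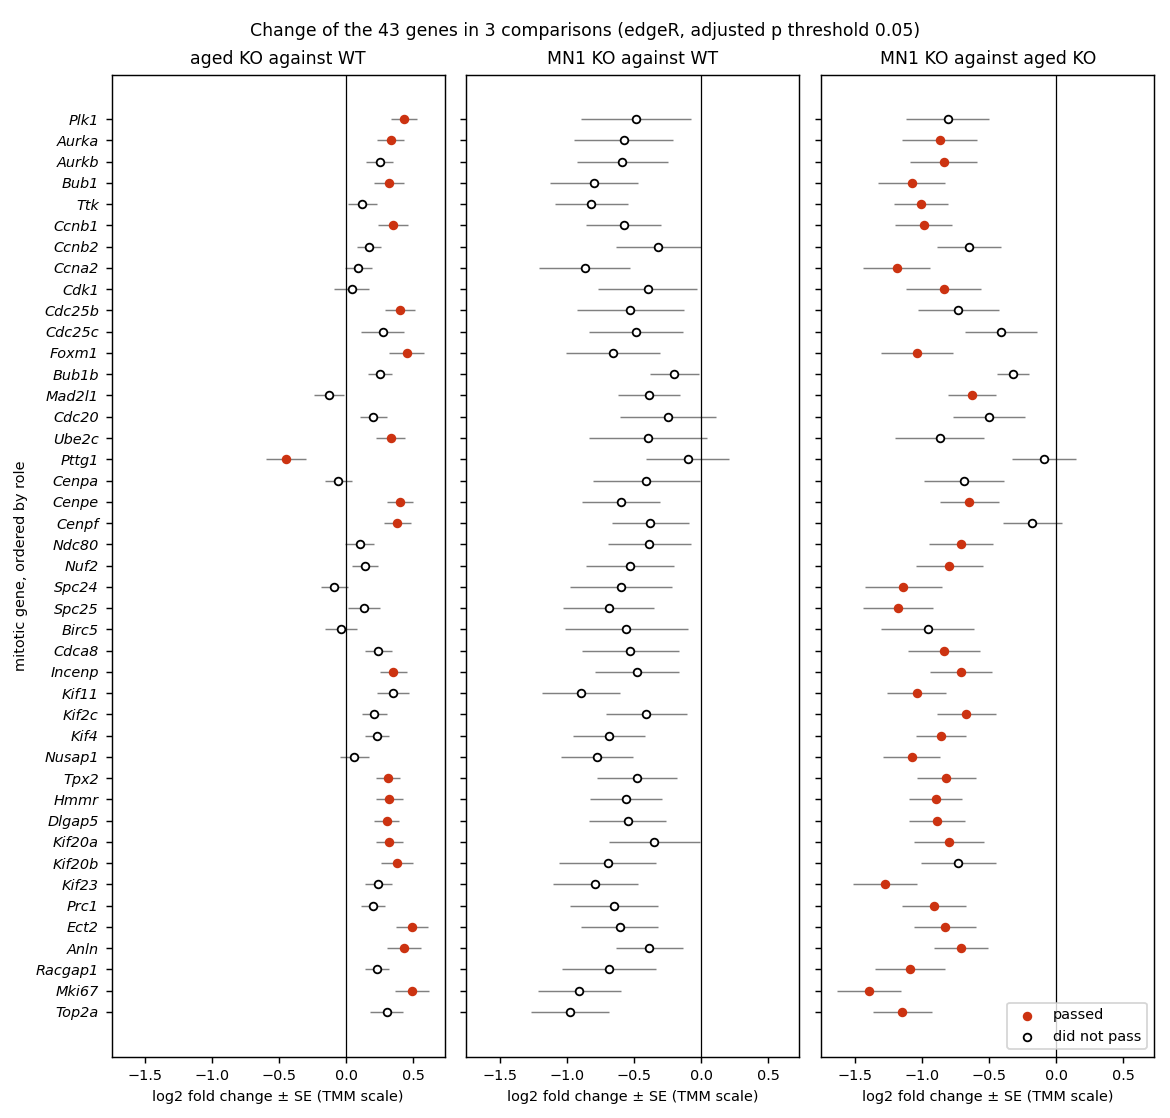
Log2 fold change of each of the 43 genes (vertical, ordered by role) with its SE in 3 comparisons, on the TMM scale; filled points passed the edgeR threshold and open points did not. Most points lie right of 0 in aged KO against WT, where 18 rose, and all lie left of 0 in MN1 KO against WT, where none passed, and in MN1_KO against aged_KO, where 31 fell.

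The last 2 comparisons set the MN1 groups against the aged groups of the same Hopx genotype. Labelled MN1 status, age and deposited table coincide and cannot be told apart in them, and they share their libraries with the comparisons above. In wild type none of the 43 genes passed in edgeR, beside 3.58% of all genes called. At an unadjusted p under 0.05 edgeR called 1, which was higher, beside 12.5% of all genes. DESeq2 and limma-trend called 0 at their adjusted thresholds, and the median was -0.04 with 18 of 43 above 0, beside 54.6% of all genes. Cenpf was at 133, 127 and 149 CPM in MN1_WT and at 86, 86.2 and 74.7 in aged_WT (log2 fold change 0.58 ± 0.22, edgeR adjusted p = 0.147), and Cenpe at 160.3, 100.1 and 164 against 101, 109 and 93 (0.35 ± 0.22, edgeR adjusted p = 0.327). The MN1_WT and aged_WT libraries did not overlap for Cenpf and overlapped for Cenpe.

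On the other side of 0, Spc24 was at 41.7, 23.6 and 39.5 CPM in MN1_WT and 51.3, 49.3 and 46.7 in aged_WT (-0.62 ± 0.28, edgeR adjusted p = 0.206), with expected counts that, as for Cenpf, were not whole in any library. Mad2l1 was at 77.8, 66.1 and 81.2 CPM against 95.2, 87.2 and 78.8 (-0.36 ± 0.18, edgeR adjusted p = 0.242), and Pttg1 at 16.6, 15.9 and 13.3 CPM against 16.8, 18.3 and 20.4 (-0.43 ± 0.24, edgeR adjusted p = 0.285). MN1_WT was lower in every library for Spc24 and Pttg1 and overlapped aged_WT for Mad2l1. With MN1_WT replicates 2 and 4 left out, the median was -0.68. Cenpf was then at 0.32, Cenpe at -0.31, Mad2l1 at -0.70, Pttg1 at -0.52 and Spc24 at -1.36. Without MN1_WT replicate 3 the median was 0.20, with 1 member called higher, beside calls for 2.8% of all genes, of which 125 of 397 were higher.

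In the knockout marrow 31 of the 43 genes were lower in MN1_KO than in aged_KO and 12 did not pass, beside 16.8% of all 13937 genes called lower (edgeR, adjusted p threshold 0.05). The changes ran from -1.40 to -0.09 with a median of -0.84, beside 0.08 for all genes. On the TMM scale the groups did not overlap for 37 genes, all lower in MN1_KO, beside 22.4% of all genes. Scaled by library totals, which moves the median of all genes to 0.46, the median of the 43 was -0.50 and 17 fell. On that scale 1358 of all 13937 genes fell and 5350 rose. No member was called higher on either scale, beside 21.1% of all genes on the TMM scale.

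All 7 spindle motors and microtubule binders fell, as did both chromosome proteins, 6 of 7 cytokinesis genes, 5 of 7 kinetochore genes and 4 of 5 kinases. Mki67 fell by 1.40 ± 0.24 (SE, n = 3 and 3, edgeR adjusted p = 0.00311) and Top2a fell by 1.15 ± 0.22 (0.00471). Kif23, the kinesin of the centralspindlin complex, was at 56.4, 53.8 and 57.6 CPM in MN1_KO and at 115, 98.6 and 103 in aged_KO, and fell by 1.28 ± 0.24 (edgeR adjusted p = 0.00457). Its levels in the other groups were 110.4, 96.1 and 95.4 CPM in aged_WT and 106, 61 and 113 in MN1_WT. Nusap1 was at 129, 129 and 135 CPM in aged_KO and fell by 1.08 ± 0.21 (edgeR adjusted p = 0.00476), and Ttk fell by 1.01 ± 0.20 (0.00511). None of these 5 genes overlapped between the groups.

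Among the kinases Bub1, Aurka and Aurkb fell by 1.08, 0.87 and 0.84. Plk1, at -0.81 ± 0.31 (edgeR adjusted p = 0.0579), did not pass. Of the cyclins and CDK1 regulators 4 of 7 fell: Ccna2 by 1.19, Foxm1 by 1.04, Ccnb1 by 0.99 and Cdk1 by 0.84. At the kinetochore Spc25, Spc24, Nuf2, Ndc80 and Cenpe fell by 1.18, 1.14, 0.80, 0.71 and 0.65, while Cenpa was at -0.69 and Cenpf at -0.18 and did not pass. The passenger genes Cdca8 and Incenp fell by 0.84 and 0.71, and Birc5, at -0.96 ± 0.35 (edgeR adjusted p = 0.0511), did not pass.

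The motors and microtubule binders beyond Nusap1 fell by 0.67 (Kif2c) to 1.04 (Kif11). Of the cytokinesis genes Racgap1, Prc1, Ect2, Kif20a and Anln fell by 1.09, 0.91, 0.83, 0.80 and 0.71, and Kif20b, at -0.73, did not pass. The checkpoint and anaphase-promoting complex group held the fewest calls, 1 of 5. Mad2l1 fell by 0.63, while Bub1b, Cdc20, Ube2c and Pttg1 were at -0.32, -0.50, -0.87 and -0.09 and did not pass. Leaving out 1 library left 16 to 39 calls, beside 17.7 to 52% of all genes. There were 16 without MN1_KO replicate 7 (22.8% of all genes), 18 without aged_KO replicate 3 (21.6%) or 9 (17.7%) and 20 without aged_KO replicate 10 (26.1%). All of these members were lower. In the same order, genes that were lower were 1530 of the 3234 called, 1547 of 3083, 1292 of 2515 and 1829 of 3730. Without MN1_WT replicates 2 and 4, which belong to neither group, Plk1 was at -0.83 ± 0.23.

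Wider cell division lists held calls in the same comparison. Of the other spindle and cytokinesis genes 18 of 32 fell and none rose, Depdc1b at -1.46 and the centromere histone chaperone gene Hjurp at -1.47 among them. Of the condensin and cohesin genes 12 of 19 fell, with Ncapg2 at -1.23 and the cohesin subunit Rad21 at -0.68. Of other kinetochore and checkpoint genes 12 of 27 fell and 1 rose, with Cenpq at -0.84 and Ska2 at -0.75. In the replication list 12 of 28 fell, Ccne2 (cyclin E2) at -1.58 and E2f2 at -2.16 having the smallest p. Of the mitotic entry genes 4 of 12 fell, Lin54 at -1.22 and Cdc25a at -0.80, and of the anaphase-promoting complex list 2 of 17 fell and 1 rose, with Fbxo5, an inhibitor of the complex, at -0.82 and Ube2s at -0.78.

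Markers of cell types also differed in this comparison. Stem and progenitor markers rose for 7 of 8 genes, with sums of 259 to 326 CPM in aged_KO and 986 to 3810.5 in MN1_KO. Granulocyte progenitor markers fell for 6 of 8, with sums of 6340.1 to 12831 and 3249.6 to 5213 CPM. Mature neutrophil markers fell for 5 of 9, with sums of 79858 to 101849 and 20024 to 74280.3 CPM. T cell markers rose for 4 of 6, with sums of 16.8 to 25.4 and 50.9 to 59.8 CPM. Of 11 early B cell markers 2 rose and 1 fell, and of 10 erythroid markers tested 1 rose and 1 fell. The part of these in the fall of the mitotic genes was not tested.

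In some comparisons the changes of the 43 genes went along with transcript length. Their longest annotated coding transcripts (GENCODE vM21) ran from 1466 bases for Cenpa to 11130 for Cenpf; which transcript of a gene these cells use was not measured. Across the 43 genes the knockout change in the aged marrow correlated with log2 transcript length at r = 0.40, beside r = 0.14 across the 11947 tested genes with a length. Genes are not independent replicates, they share libraries, and these correlations are descriptions. For MN1_WT against aged_WT r was 0.46, for MN1 KO against WT -0.29, for the difference of the knockout effects -0.42, and for MN1_KO against aged_KO -0.07. Without MN1_WT replicates 2 and 4 these 4 values were 0.45, -0.46, -0.58 and -0.07. Mad2l1, at 7557 bases by its longest annotated transcript, was at -0.13 in the aged marrow. Its deposited values treat it as a shorter message. In aged_WT replicate 1 it was at 95.2 CPM and 79.2 TPM, near the 104 and 83.9 of Cdc20 (1793 bases). The correlations therefore use a length for Mad2l1 that the TPM values do not.

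Single libraries leaned towards long or short messages within a group. The correlation of a gene's deviation from its mean with length was -0.63 in MN1_KO replicate 8 but 0.49 in MN1_KO replicates 5 and 7. It was -0.37 in aged_KO replicate 10 but 0.24 and 0.28 in aged_KO replicates 3 and 9. In aged_WT it was -0.26, -0.22 and -0.56, and in MN1_WT 0.17, 0.39 and 0.44. The median level of the 21 members longer than the median of 3236 bases, over that of the other 22, was 0.819 in MN1_KO replicate 8 and 1.08 to 1.41 in the other 11 libraries.

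Within MN1_KO, replicate 8 was the highest of the 3 libraries for 20 of the 22 shorter members and the lowest for none of them. Among the 21 longer members it was the lowest for 10, the highest for 7 and between for 4. Cenpf, the longest, was at 136, 133 and 60.8 CPM in MN1_KO replicates 5, 7 and 8, and Pttg1, a short one, at 12.8, 11.5 and 18.4. Members long by their longest annotated transcript that went the other way were Cdk1, at 90.7, 81.4 and 136 CPM, and Foxm1, at 55, 51.3 and 70.9. The deposited values treat some of the longer members as shorter messages. In aged_WT replicate 1 Cdk1 was at 167 CPM and 82.2 TPM, near the 161 and 76.7 of Racgap1 (3052 bases). Birc5 (3334 bases) was at 116 CPM and 167 TPM there, beside 112 and 114 for Cenpa (1466 bases). Ube2c (2191 bases), among the shorter members, was at 119 CPM and 192 TPM, so it too was treated as shorter than listed. With a curve of expression on transcript length fitted per library as an offset in edgeR, an alternative chosen after seeing the data, 15 members were called in aged_KO against aged_WT, of which 11 were also called without it, beside 31.9% of all genes. In MN1_KO against aged_KO it called 36, beside 42.7% of all genes. All 15 were rises, beside 1896 rises among the 3809 genes called, and all 36 were falls, beside 2808 among 5517. What set the relation to length in these libraries was not tested.

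**Figure D4:**
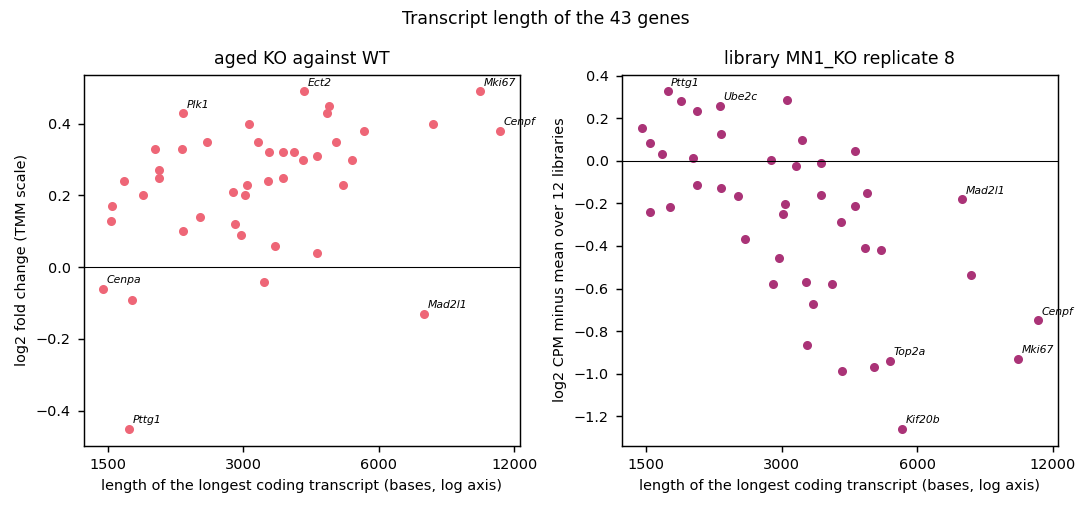
Left, log2 fold change of the 43 genes in aged KO against WT (TMM scale) by the length of the longest coding transcript (log axis, bases). Right, log2 CPM of the same genes in MN1_KO replicate 8 minus their mean over the 12 libraries; the points rise with length on the left (r = 0.40) and fall with it on the right (r = -0.63).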

How the data were processed

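Poly(A) RNA libraries of 12 mouse bone marrow samples were made with a stranded mRNA kit, per the labels' protocols. The deposited expected counts and TPM values per gene symbol were made with RSEM 1.2.28 and Bowtie2 2.3.4.3 on mm10, per the submitters' processing notes; the annotation is not given in the sources used here. Groups were taken from the sample labels. Expected counts were rounded and tested in edgeR 4.0.16 (R 4.3.3) after filterByExpr and TMM scaling, with the robust quasi-likelihood F test and Benjamini-Hochberg adjustment over all genes tested (threshold 0.05). Knockout was compared with wild type within each table of 6 libraries, and contrasts across tables used all 12. SE was taken as the absolute log2 fold change over the square root of F. CPM used the library total, and TPM served only to order levels. RSEM shares reads between similar transcripts: among the members, expected counts were not whole in all 12 libraries for Cenpf and Spc24, in 11 for Hmmr and in 9 for Birc5, so these values are less certain. Library totals of 16544407 to 28409046 counts set the precision. The procedure was tested on simulated data.

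The members and all lists were chosen with earlier results of these data known. Values per library are given for Plk1, Mki67, Top2a, Ccnb1, Cdk1, Aurka, Aurkb and Foxm1, for the 5 members with the smallest p in each comparison and for called members against the median's sign; from each other list the 2 genes with the smallest p are named. Alternatives were DESeq2 1.42.0, limma-trend (limma 3.58.1), RLE scaling, library totals, no filter or a stricter one (1 CPM in 3 libraries), all libraries in 1 fit, and each library left out. Chosen after seeing the data were a transcript length curve and the removal of MN1_WT replicates 2 and 4.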

Additional observations from a re-analysis of the deposited data

Results flagged for a closer look

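For 2 of the 43 mitotic genes the difference between the knockout effect with MN1 and that in the aged marrow passed the test of the difference itself (edgeR, all 12 libraries, n = 3 in each group). The difference was -1.41 ± 0.34 (SE, edgeR adjusted p = 0.0482) for Mki67 and -1.28 ± 0.31 (edgeR adjusted p = 0.0499) for Top2a. Among the named genes of the other cell division lists it passed for 4. Cit, which encodes citron kinase of the midbody, stood at -1.61 ± 0.32 (edgeR adjusted p = 0.0285) and Depdc1b at -1.44 ± 0.28 (edgeR adjusted p = 0.027). Lin54 stood at -1.43 ± 0.29 (edgeR adjusted p = 0.0282) and Cdc25a at -1.02 ± 0.25 (edgeR adjusted p = 0.0499). None of the 6 passed when MN1_WT replicates 2 and 4, whose Mn1 was at 0.395 and 0.16 CPM, were left out together. In that setting Mki67 stood at -0.72 (edgeR adjusted p = 0.34), Top2a at -0.70 (0.368), Cit at -1.01 (0.185), Depdc1b at -0.92 (0.182), Lin54 at -0.96 (0.216) and Cdc25a at -0.56 (0.373).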

How the results depend on the processing

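Calls depended on scale and on single libraries. Percentages are the share of all genes called, higher and lower together. In aged KO against WT, 19 members were called, against 1 with library totals (34.7% of all genes, median 0.08) and 0 with all 12 libraries in 1 fit (5.87%); leaving out 1 library gave 2 to 14 (18.6 to 35.2%). In MN1 KO against WT, 0 were called, against 1 with DESeq2 (4.21%), 2 with all 12 libraries (3.33%) and 0 to 9 leaving out 1 library (0 to 6.49%). For the difference, 2 were called, against 14 with DESeq2 (12.7%), 1 with no filter (2.05%), and 0 with library totals (4.05%) or the length curve (2.81%). Leaving out 1 library gave 0 to 30 (0.372 to 23.6%, median -1.10 to -0.70). In MN1_WT against aged_WT, 0 were called (3.58%), and 0 to 1 leaving out 1 library (0.548 to 12.5%), with a median of -0.20 to 0.20. Library totals gave a median of 0.10. In MN1_KO against aged_KO, 31 were called, against 17 with library totals (48.1%, median -0.50) and 16 to 39 leaving out 1 library (17.7 to 52%). All of these member calls were lower, while 1358 of the 6708 genes called with library totals were lower. Cdk1, near 0 in aged KO against WT, was at -0.13 with library totals, at -0.01 with the length curve, and at -0.08 to 0.14 leaving out 1 library.

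Without MN1_WT replicates 2 and 4, the MN1 KO against WT median was 0.11, with Plk1 at 0.43, Ccnb1 at 0.05, Cdk1 at 0.27, Aurka at 0.19, Aurkb at 0.17 and Foxm1 at 0.11. In the same setting the difference had a median of -0.26, with Cdk1 at 0.15, and MN1_WT against aged_WT had a median of -0.68, with Cenpe at -0.31. The cause of these shifts was not tested. No paired analysis was possible because the groups compared in a table share no replicate numbers and the numbers name no shared animal. Depth of at least 16544407 counts and 3 libraries a group limit the size of change that can pass.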
